A study of Mus musculus with 4 samples.

Results

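The genes of glucose use were followed here in osteoclast progenitors that lack Ptip: 35 mouse symbols listed by function, covering glucose entry, glycolysis, lactate export, the pentose phosphate pathway and the response to low oxygen. Of the 35 symbols, 34 had a row in the expression table. Aldoa had a second row under another Ensembl identifier, so the listed genes held 35 of the 18276 rows. Eno2 is not analysed here. All 35 rows passed the filter of at least 1 CPM (counts per 1e6 reads) in at least 2 libraries, as did 12357 rows of the whole table.

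Poly(A) RNA was sequenced from cells sorted from fresh mouse bone marrow as osteoclast progenitors, that is, CD115-positive cells negative for B220, CD3 and Mac-1, where CD115 is the receptor for the growth factor M-CSF. The Ptip_KO group (Ptip flox/flox Mx-1Cre) and the WT group (WT Mx-1Cre) had 2 libraries each, all on the B6;129 background. Both groups carried Mx-1Cre, a recombinase under an interferon-inducible promoter that is active in blood-forming cells and in other tissues, and the labels give no inducer, age or sex. The series calls the replicates independent without saying whether they came from separate mice, so a p-value here measures only how these libraries spread. In Ptip_KO that spread may be technical. The WT libraries did not come from the same mouse, because the sex genes Xist and Ddx3y, given below, mark WT replicate 2 as female and WT replicate 1 as male. Ptip (gene symbol Paxip1) encodes a protein of the complexes that methylate histone H3 at lysine.

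Glycolysis splits glucose into pyruvate in the cytosol and yields ATP without oxygen. Pyruvate either enters mitochondria or is reduced to lactate, which leaves the cell through monocarboxylate transporters, while the pentose phosphate pathway takes glucose 6-phosphate towards NADPH and ribose. Many of these genes are targets of hypoxia-inducible factor (HIF), and osteoclasts, the bone-resorbing cells that such progenitors can form, are known to use both glycolysis and respiration.

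The table held 67592972 to 77773478 reads per library, so that 1 read was worth 0.0127 to 0.0143 CPM. Paxip1 had 5.10 and 3.73 CPM in Ptip_KO, against 106 and 103 CPM in WT, a log2 fold change of −4.29. WT replicate 2 stood apart from the other 3 libraries: it had 298 CPM of Xist and 0.101 CPM of the Y-linked Ddx3y, where Xist ran from 0.0428 to 0.0814 CPM and Ddx3y from 69.1 to 89.6 CPM in the others. Of the genes followed here, Pgk1 and G6pdx are X-linked, as are Pdha1, Pdk3, Pfkfb1, Prps1 and Prps2 among the other pathway genes given below. Csf1r, which encodes CD115, had 825 and 782 CPM in Ptip_KO, against 677 and 606 CPM in WT, while Itgam, which encodes a chain of Mac-1, had 35.1 to 42.1 CPM and Cd3e 0 to 0.190 CPM over the 4 libraries. By limma (adjusted p under 0.05), 9 of 13 tested markers of red cell precursors were lower in Ptip_KO. Their summed level was 823 and 1130 CPM in Ptip_KO, against 2143 and 4916 CPM in WT. Among 10 tested macrophage markers 7 were lower, with sums of 224 and 194 CPM in Ptip_KO, against 367 and 238 CPM in WT. Most of these sums was Cd68, which had 199 and 165 CPM in Ptip_KO, against 228.5 and 121 CPM in WT, and so overlapped. Of 13 tested dendritic cell markers 7 were lower and 1 was higher, with sums of 1196 and 1036 CPM in Ptip_KO, against 1486 and 1287 CPM in WT. Of 14 tested neutrophil markers 1 was lower and 0 were higher. Of 10 tested markers of monocytes and osteoclast progenitors 2 were lower and 0 higher. Neutrophil S100a9 had 382.5 and 216 CPM in Ptip_KO, against 714 and 1242 CPM in WT, while Mpo overlapped between the groups. The part of these cell types in the results on glucose use was not tested. In bulk RNA, fewer cells of a type and less RNA per cell cannot be told apart.

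Comparing Ptip_KO with WT asks which transcripts differ between libraries from progenitors with and without the Ptip deletion. As given above, WT replicate 2 also stood apart in Xist and Ddx3y, and markers of other cell types differed between the groups. Both groups carried the same strain label, and whether their strain background differed was not tested. The fit held genotype only, so the parts of sex, strain background and cell types in the differences below were not tested. Most steps of glycolysis showed differences that did not pass the test, and the 3 genes that did were all lower in Ptip_KO: Ldhb, a lactate dehydrogenase subunit, Slc16a3, the lactate exporter MCT4, and Eno1b, a near-identical copy of the enolase gene Eno1. None of the 35 rows rose. Thus 8.57% of the rows fell by limma, where 3.86% of all tested genes fell and 2.43% rose. The edgeR quasi-likelihood test on the reads called the same 3 genes lower and 0 higher, where 3.37% of all tested genes fell and 1.97% rose. DESeq2 called 9 rows lower and 0 higher, where 9.11% of all tested genes fell and 6.31% rose. Its 6 further genes were Slc2a3, Hk2, Hk3, Pfkp, Slc16a1 and Pgd. At an unadjusted limma p under 0.05, 9 rows (25.7%) were lower, against 12.5% of all tested genes, and 2 rows (5.71%), Aldoc and Pdk1, were higher, against 11.2% of all tested genes.

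Both Ptip_KO libraries lay below both WT libraries in 15 rows (42.9%), a pattern seen in 27.3% of all tested genes, and above them in 6 rows (17.1%), against 27.7% of all tested genes. The log2 fold change, taken on log2(CPM + 1), was negative in 27 of 35 rows (77.1%) and in 49.5% of all tested genes. Its median was −0.16 over the 35 rows and 0.0032 over all tested genes. These shares describe a list chosen with earlier results of these data known, and the list itself was not tested. With 2 libraries a group, an exact 2-sided permutation test of a single gene cannot go below p = 0.333, so the p-values below rest on a spread shared across genes.

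**Figure D1:**
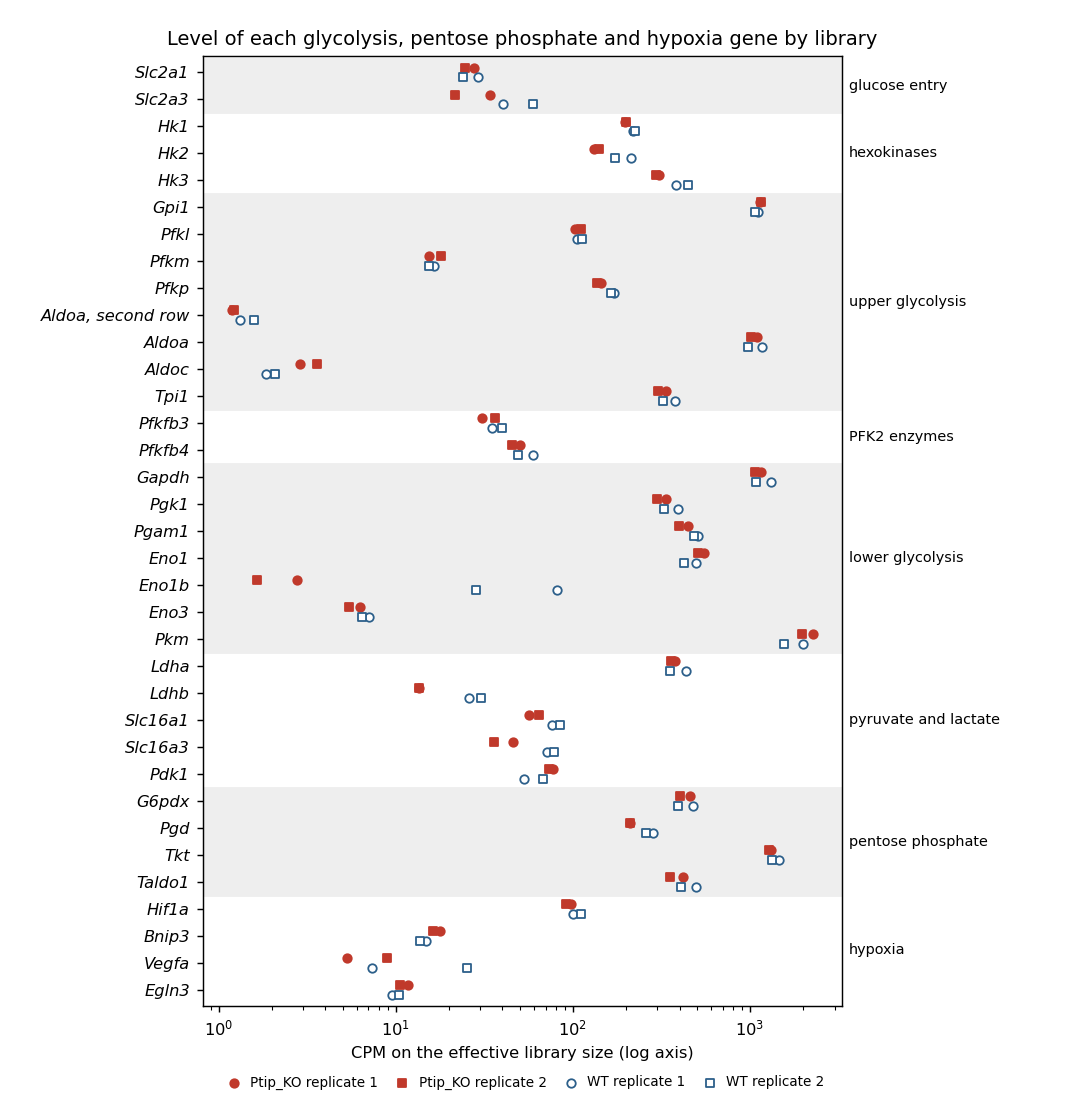
Level of each gene in each library, in CPM on a log axis, with genes grouped by role from glucose entry at the top to hypoxia at the bottom; filled points are Ptip_KO and open points WT libraries. Levels ran from about 1 CPM for the second Aldoa row to 2268 CPM for Pkm in Ptip_KO replicate 1, and Eno1b shows the widest gap between the groups.

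**Figure D2:**
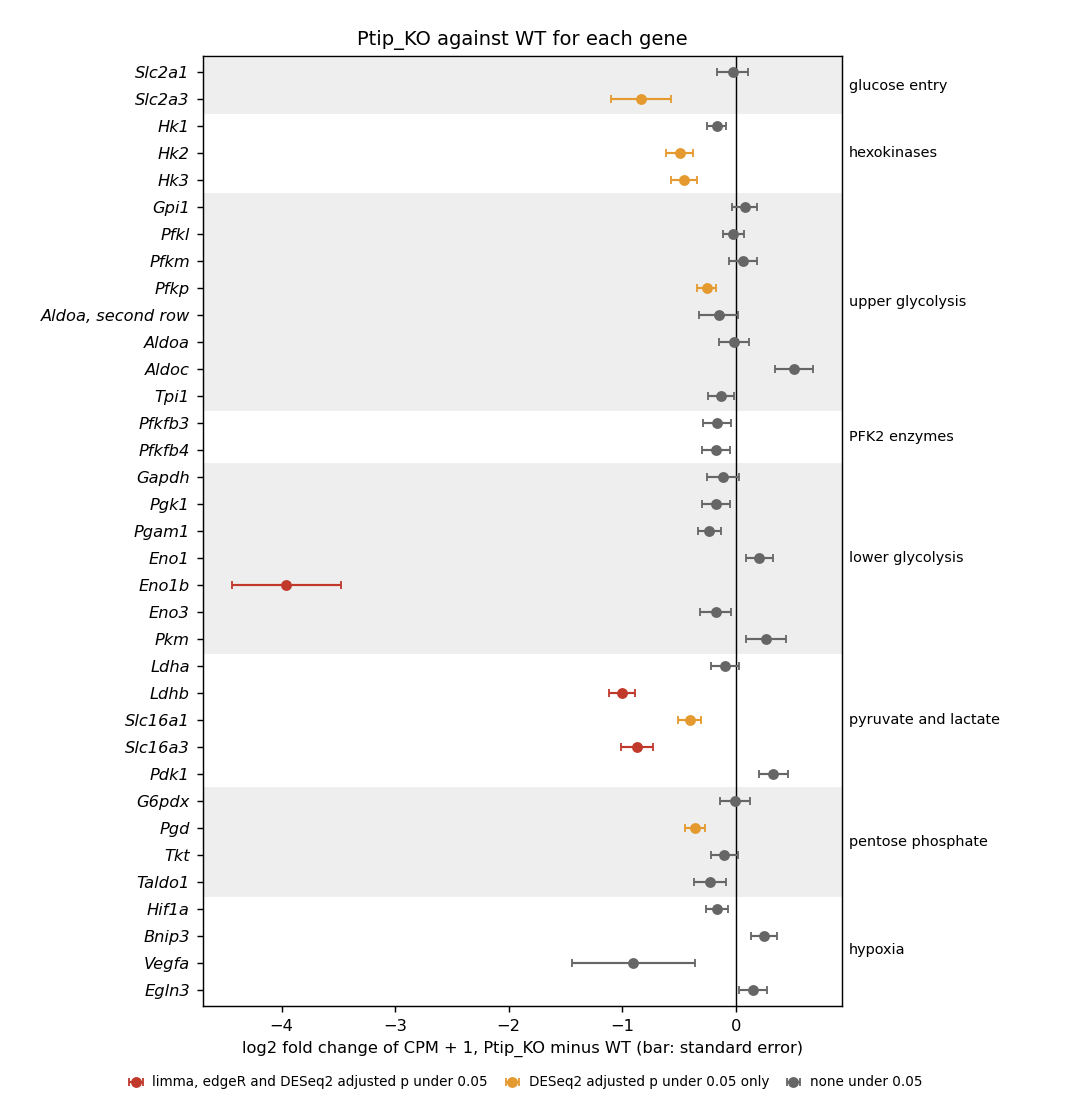
Log2 fold change of CPM + 1, Ptip_KO minus WT, for each gene with its standard error as a bar and the colour showing which tools called it. Ldhb (−1.0), Slc16a3 (−0.87) and Eno1b (−3.96) were called by limma, and most other points lie between −0.5 and 0.5.

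Glucose entry was represented by Slc2a1 and Slc2a3, which encode the transporters GLUT1 and GLUT3. Slc2a1 had 27.5 and 24.4 CPM in Ptip_KO, against 29.3 and 23.9 CPM in WT, so the groups overlapped. The log2 fold change was −0.03 ± 0.134 (SE), and its sign turned to 0.022 when libraries were scaled to a common sum. Slc2a3 had 33.8 and 21.6 CPM in Ptip_KO, against 40.1 and 59.7 CPM in WT. Both Ptip_KO libraries were lower, but replicates of either group differed widely, and the log2 fold change of −0.83 ± 0.264 (SE) had an adjusted p of 0.133 by limma, 0.153 by edgeR and 0.0149 by DESeq2. Leaving out Ptip_KO replicate 1 gave a log2 fold change of −1.14 (limma adjusted p = 0.0397), and leaving out WT replicate 1 gave −1.11 (0.00669). Leaving out the other Ptip_KO library gave −0.52 (0.354), and leaving out the other WT library gave −0.55 (0.120), so the size for Slc2a3 depended on single libraries.

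The 3 hexokinases, which trap glucose in the cell as glucose 6-phosphate, each lay lower in both Ptip_KO libraries without passing limma's test. Hk3, the isoform typical of myeloid cells, had 308 and 292.5 CPM in Ptip_KO, against 380.0 and 447 CPM in WT, a log2 fold change of −0.46 ± 0.112 with an adjusted p of 0.0760 by limma and 0.00308 by DESeq2. Hk2, the isoform induced by growth signals and low oxygen, had 131.5 and 141 CPM in Ptip_KO, against 212 and 173.5 CPM in WT, a log2 fold change of −0.49 ± 0.120 with an adjusted p of 0.0745 by limma and 0.00126 by DESeq2. Hk1, which is expressed in most tissues, had 196 and 199 CPM in Ptip_KO, against 219.5 and 224 CPM in WT, at a log2 fold change of −0.17 (limma adjusted p = 0.287.) With a library left out, the limma adjusted p of Hk3 ran from 0.0127 (without WT replicate 1) to 0.345, and that of Hk2 from 0.00553 (without WT replicate 2) to 0.289. Per kilobase of exon the 3 genes summed to 129 and 126 CPM in Ptip_KO, against 164.5 and 177 CPM in WT. Hk3 made up 65.0% and 62.9% of that sum in Ptip_KO and 62.8% and 68.7% in WT, so its share overlapped between the groups.

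No row of upper glycolysis passed limma's test, and their log2 fold changes ran from −0.25 to 0.52. Gpi1, which turns glucose 6-phosphate into fructose 6-phosphate, had 1136 and 1157 CPM in Ptip_KO, against 1109 and 1062 CPM in WT (log2 fold change 0.08, limma adjusted p = 0.714). Aldoa, the main aldolase, had 1090.0 and 1013 CPM in Ptip_KO, against 1161 and 971 CPM in WT, with a log2 fold change of −0.02. Tpi1, triose phosphate isomerase, had 337 and 301 CPM in Ptip_KO, against 376 and 323 CPM in WT. The groups of Aldoa and Tpi1 overlapped, and the second Aldoa row had only 1.18 to 1.58 CPM over the 4 libraries. Of the phosphofructokinases, which commit sugar to glycolysis, Pfkp had 143 and 137 CPM in Ptip_KO, against 170 and 165 CPM in WT. Its log2 fold change of −0.25 ± 0.0833 had an adjusted p of 0.143 by limma and 0.0231 by DESeq2, while Pfkl and Pfkm had −0.02 and 0.06 and overlapped between the groups. Aldoc, an aldolase known from brain, was low, with 2.88 and 3.60 CPM in Ptip_KO, against 1.84 and 2.07 CPM in WT. It had the largest positive log2 fold change of the 35 rows, 0.52 ± 0.167, at a limma adjusted p of 0.139. Pfkfb3 and Pfkfb4, which set the level of the phosphofructokinase activator fructose 2,6-bisphosphate, had log2 fold changes of −0.16 and −0.17 with overlapping groups.

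In lower glycolysis, Pkm, pyruvate kinase, was the most abundant row of all, with 2268 and 1975 CPM in Ptip_KO, against 1996 and 1547 CPM in WT. Its groups overlapped, at a log2 fold change of 0.27 (limma adjusted p = 0.412.) Gapdh, glyceraldehyde 3-phosphate dehydrogenase, had 1149 and 1062 CPM in Ptip_KO, against 1319 and 1079 CPM in WT, with a log2 fold change of −0.11. Of 102 annotated near-identical copies of Gapdh 22 had a row, and they held 1.56% to 1.64% of the reads of Gapdh and its copies. Pgk1 and Pgam1, the next enzymes in order, had log2 fold changes of −0.18 and −0.23 with limma adjusted p-values of 0.459 and 0.248. The reads in copies of Gapdh, Pgam1, Pkm, Gpi1 or Bnip3 stayed at 1.64% or less of each gene and its copies.

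Enolase, which makes phosphoenolpyruvate, is encoded in this table by Eno1 on chromosome 4 (mm10, 150236721 to 150248879, plus strand), by Eno1b on chromosome 18 and by the muscle form Eno3. Eno1b had 2.77 and 1.64 CPM in Ptip_KO, against 81.6 and 28.2 CPM in WT. Both Ptip_KO libraries were low, and the WT libraries differed from each other by more than they did for any other called gene of the list. Eno1b averaged 2.21 ± 0.799 CPM in Ptip_KO, against 54.9 ± 37.75 CPM in WT (SD, n = 2 each), a log2 fold change of −3.96 ± 0.482 with an adjusted p of 0.0146 by limma, 0.0255 by edgeR and 6.35e-08 by DESeq2. Eno1 had 550 and 509 CPM in Ptip_KO, against 497 and 422 CPM in WT, a log2 fold change of 0.21 ± 0.119 with a limma adjusted p of 0.358.

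The transcripts of Eno1 and Eno1b match at 99.48% of 1736 aligned nucleotides, so how the authors' counting split or dropped reads between them is uncertain. Eno1b took 0.502% of the reads assigned to both genes in Ptip_KO replicate 1 (Wilson 95% interval 0.439% to 0.574%) and 0.321% in Ptip_KO replicate 2 (0.268% to 0.386%). In WT it took 14.1% in replicate 1 (13.8% to 14.4%) and 6.27% in replicate 2 (6.02% to 6.52%), and these intervals cover counting error only. Summed, the genes had 553 and 511 CPM in Ptip_KO, against 579 and 450 CPM in WT, at a log2 fold change of 0.06 (limma adjusted p = 0.855.) The groups overlapped in the sum. The WT sums differed from each other by more than the whole level of Eno1b, so the sum cannot show whether the difference in Eno1b changed the total. It also leaves out pseudogene copies and any reads that counting dropped. Gm4735, a processed pseudogene on chromosome 2 that matches Eno1 at 99.62%, had 1.011 and 1.23 CPM in Ptip_KO, against 6.36 and 3.26 CPM in WT. Its log2 fold change was −1.40 ± 0.280 with an adjusted p of 0.0475 by limma and 0.0514 by edgeR, and its limma adjusted p was 0.0963 without Ptip_KO replicate 1 and 0.0636 without Ptip_KO replicate 2. As for Eno1b, WT replicate 1 was the highest and both Ptip_KO libraries lay below both WT libraries. Gm5855, a further pseudogene on chromosome 3, had 0.0263 and 0 CPM in Ptip_KO, against 0.326 and 0.114 CPM in WT, too low to be tested. Eno1b overlaps another annotated gene, AC150274.2, on the same strand, and how counting treated reads in that overlap is not given in the sources used here. Whether the reads assigned to Eno1b come from the Eno1b locus was not tested. Eno3 had 6.28 and 5.45 CPM in Ptip_KO, against 7.04 and 6.44 CPM in WT, with a log2 fold change of −0.17.

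**Figure D3:**
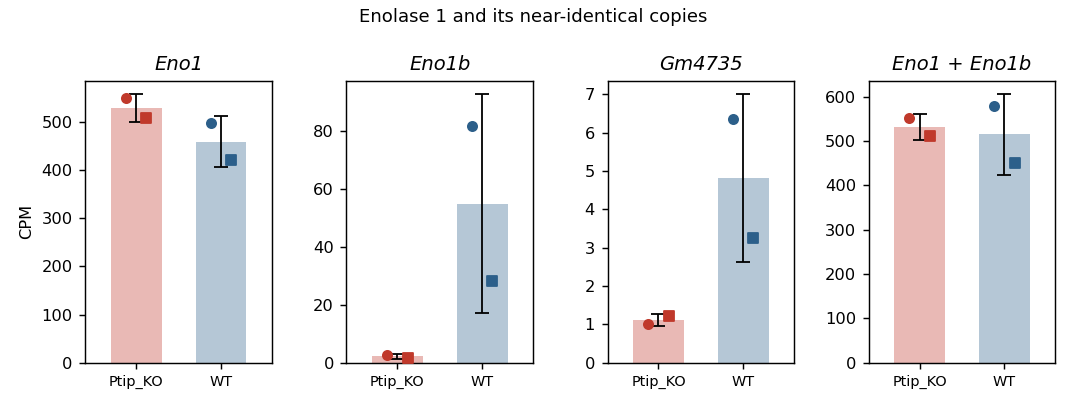
CPM of Eno1, Eno1b, the pseudogene Gm4735 and the sum of Eno1 and Eno1b, with 1 point per library and Ptip_KO left of WT in each panel. Eno1b lies at 2.77 and 1.64 CPM in Ptip_KO, against 81.6 and 28.2 CPM in WT, while the sum overlaps between the groups.

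At the end of glycolysis, Ldhb and Slc16a3 fell, while Ldha, the main lactate dehydrogenase, overlapped between the groups. Ldhb encodes the subunit known from heart and other oxidative tissues, and lies on chromosome 6 (mm10, 142490249 to 142507957, minus strand). Slc16a3 encodes MCT4, the exporter known from glycolytic cells, and lies on chromosome 11 (mm10, 120948480 to 120960868, plus strand). The 250 bases before their RefSeq start sites are printed here beside those of Ldha, a known HIF target, to show which of them hold the core of the HIF binding motif. Sequences are from RefSeq on GRCm38.p6, 5′ to 3′ on the gene's strand, and capitals mark ACGTG or GCGTG on either strand (CACGT or CACGC when read on the printed strand), where a palindromic CACGTG counts as 2 matches of ACGTG. The windows are chr6:142507958-142508207 on the minus strand for Ldhb, chr11:120948817-120949066 on the plus strand for Slc16a3 and chr7:46845554-46845803 on the plus strand for Ldha. The annotated GENCODE start lies upstream of these windows for both Slc16a3 (120948480) and Ldha (46841475).
Ldhb: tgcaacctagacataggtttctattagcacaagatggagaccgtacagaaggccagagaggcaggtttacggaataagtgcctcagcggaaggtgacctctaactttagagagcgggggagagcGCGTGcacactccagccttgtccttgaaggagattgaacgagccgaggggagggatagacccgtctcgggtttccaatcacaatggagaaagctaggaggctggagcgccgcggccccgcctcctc
Slc16a3: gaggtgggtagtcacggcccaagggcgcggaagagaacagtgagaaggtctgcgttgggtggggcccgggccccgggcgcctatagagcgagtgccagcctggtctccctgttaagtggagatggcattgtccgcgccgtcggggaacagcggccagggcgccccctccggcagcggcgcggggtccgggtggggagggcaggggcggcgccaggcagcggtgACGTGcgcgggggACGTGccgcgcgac
Ldha: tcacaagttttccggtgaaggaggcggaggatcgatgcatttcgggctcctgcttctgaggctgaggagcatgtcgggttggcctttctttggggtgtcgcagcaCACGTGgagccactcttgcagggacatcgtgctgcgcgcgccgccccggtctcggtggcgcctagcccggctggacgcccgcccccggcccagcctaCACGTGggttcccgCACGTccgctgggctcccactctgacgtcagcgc
The Ldhb window held 0 matches of ACGTG and 1 of GCGTG, the Slc16a3 window 2 of ACGTG and 0 of GCGTG, and the Ldha window 5 of ACGTG and 0 of GCGTG.

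With each of 27025 genes given a single RefSeq window of this length, 16.6% held ACGTG, 28.2% GCGTG and 38.6% either. For the genes of the pathway lists this was the window nearest the GENCODE start, and for nearly all others the first one recorded. The shares below thus set windows chosen by unlike rules side by side. Of the 34 symbols with a row, 32 had a window, and 13 of these (40.6%) held ACGTG, 17 (53.1%) GCGTG and 26 (81.2%) either. Hk1, Vegfa, Pkm, Tpi1, Gpi1 and Aldoa had no match in this window. Many RefSeq windows belong to genes that these cells do not express. Among the tested genes that had a window the shares were higher, at 22.3% for ACGTG, 45.9% for GCGTG and 57.3% for either, and among the other genes of these pathways they were 33.3%, 52.6% and 70.2%. Only 74.5% of the tested genes could be matched to a window, too few for a check against the expressed genes, so these shares are descriptions. The matches describe letters and not binding.

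Ldhb had 13.4 and 13.6 CPM in Ptip_KO, against 25.98 and 30.2 CPM in WT. The replicates of each group were close and the groups far apart. Ldhb averaged 13.5 ± 0.106 CPM in Ptip_KO, against 28.1 ± 3.005 CPM in WT (SD, n = 2 each), a log2 fold change of −1.0 ± 0.115 with an adjusted p of 0.0126 by limma, 0.0215 by edgeR and 7.37e-09 by DESeq2. The call held with each library left out in turn. Ldha had 377 and 357 CPM in Ptip_KO, against 432 and 355 CPM in WT, at a log2 fold change of −0.09 (limma adjusted p = 0.699), and the sign turned to 0.048 without WT replicate 1. Per kilobase of exon, Ldhb made up 6.99% and 7.44% of both lactate dehydrogenase genes in Ptip_KO, against 11.25% and 15.2% in WT.

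Slc16a3 had 46.0 and 35.7 CPM in Ptip_KO, against 71.35 and 78.6 CPM in WT. It averaged 40.9 ± 7.295 CPM in Ptip_KO, against 74.97 ± 5.12 CPM in WT (SD, n = 2 each), a log2 fold change of −0.87 ± 0.140 with an adjusted p of 0.0279 by limma, 0.0385 by edgeR and 1.77e-06 by DESeq2. The groups did not overlap, and the limma adjusted p was 0.0547 without Ptip_KO replicate 2, the library with the lowest value. Slc16a1, which encodes MCT1, a transporter that carries lactate in either direction, had 56.8 and 64.4 CPM in Ptip_KO, against 76.6 and 84.5 CPM in WT. Its log2 fold change of −0.41 ± 0.105 had an adjusted p of 0.0847 by limma, 0.113 by edgeR and 0.0232 by DESeq2, and by limma 0.0354 without WT replicate 1 and up to 0.426 without another library. Per kilobase of exon both exporters summed to 21.5 and 21.3 CPM in Ptip_KO, against 30.7 and 33.9 CPM in WT. Slc16a3 made up 40.3% and 31.6% of that sum in Ptip_KO and 43.7% and 43.6% in WT.

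Pdk1, a mitochondrial kinase that inhibits pyruvate dehydrogenase and so the conversion of pyruvate to acetyl-CoA, lay higher in both Ptip_KO libraries without passing the test. It had 77.6 and 73.7 CPM in Ptip_KO, against 53.0 and 67.45 CPM in WT. The log2 fold change was 0.33 ± 0.131 with a limma adjusted p of 0.202, and it was 0.16 (0.463) without WT replicate 1 and 0.50 (0.0183) without WT replicate 2.

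**Figure D4:**
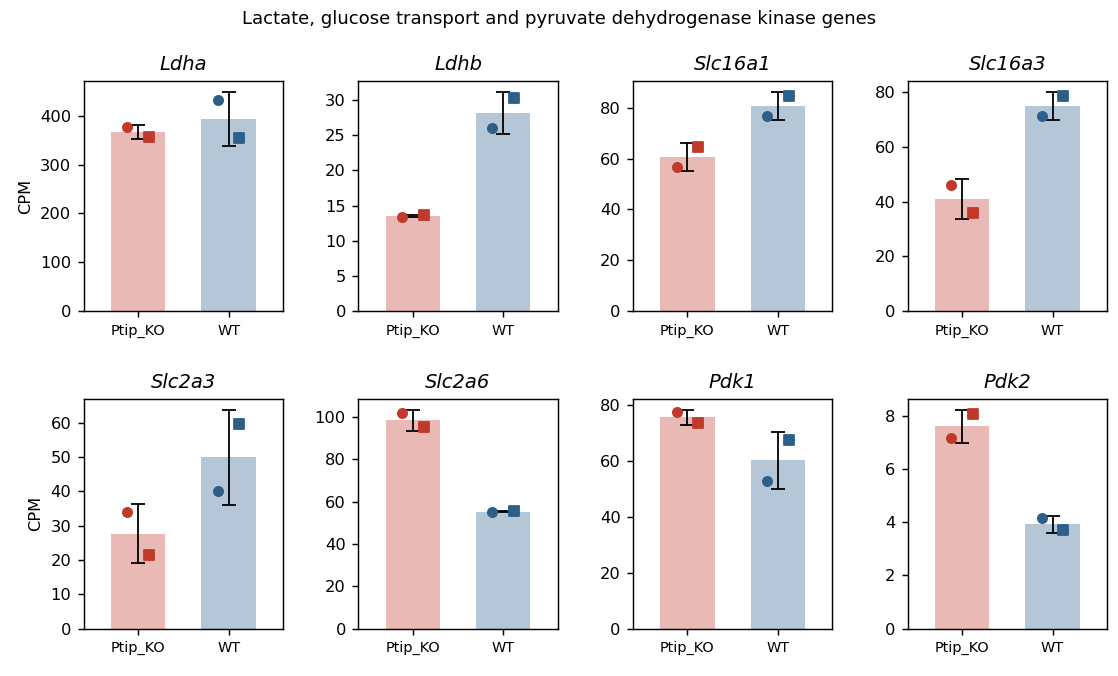
CPM of the genes of lactate, glucose transport and pyruvate dehydrogenase kinase, 1 panel per gene and 1 point per library, with Ptip_KO left of WT. Ldhb, Slc16a3, Slc16a1 and Slc2a3 lie lower in Ptip_KO than in WT without overlap. Slc2a6, Pdk2 and Pdk1 lie higher without overlap, and Ldha overlaps.

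In the pentose phosphate pathway all 4 log2 fold changes were negative and none passed limma's test. Pgd, which makes the second NADPH of the oxidative branch, had 210 and 210 CPM in Ptip_KO, against 282 and 258 CPM in WT. The groups were apart, and the log2 fold change of −0.36 ± 0.0903 had an adjusted p of 0.0797 by limma, 0.0615 by edgeR and 0.000623 by DESeq2, and by limma 0.0397 without WT replicate 2 and up to 0.376 without another library. G6pdx, the entry enzyme of that branch, had 456 and 405 CPM in Ptip_KO, against 476 and 392.05 CPM in WT, with a log2 fold change of −0.01 and overlapping groups. Tkt, transketolase, had 1314 and 1282 CPM in Ptip_KO, against 1457 and 1328 CPM in WT (log2 fold change −0.10, limma adjusted p = 0.664). Taldo1, transaldolase, had a log2 fold change of −0.22 at a limma adjusted p of 0.402.

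Of the hypoxia genes none passed by limma, edgeR or DESeq2, and none had an unadjusted limma p under 0.05. Hif1a, the oxygen-regulated subunit of HIF, which is controlled mainly as a protein, had 98.01 and 91.2 CPM in Ptip_KO, against 101 and 111 CPM in WT, at a log2 fold change of −0.16 (limma adjusted p = 0.374.) Bnip3, a mitophagy receptor, had 17.9 and 16.3 CPM in Ptip_KO, against 14.7 and 13.7 CPM in WT, with a log2 fold change of 0.25. Egln3, a prolyl hydroxylase that marks HIF for degradation, had 11.7 and 10.6 CPM in Ptip_KO, against 9.50 and 10.4 CPM in WT, with a log2 fold change of 0.15. Thus Bnip3 and Egln3, known as HIF targets, lay slightly higher in both Ptip_KO libraries without passing the test. That pattern was seen in 27.7% of all tested genes. In all, 6 of the 35 rows lay higher in this way, with Gpi1, Aldoc, Eno1 and Pdk1 as the others. Both Ptip_KO libraries lay below both WT libraries in 15 rows, among them Hk2 (log2 fold change −0.49), while Ldha overlapped (−0.09). The part of HIF in these values was not tested. Vegfa, the angiogenic growth factor, had 5.31 and 8.91 CPM in Ptip_KO, against 7.30 and 25.2 CPM in WT. WT replicate 2 alone was high, and the log2 fold change of −0.90 ± 0.540 had a limma adjusted p of 0.381. Without WT replicate 2 the log2 fold change of Vegfa was −0.07 (limma adjusted p = 0.876), and without WT replicate 1 it was −1.73 (0.000982).

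Other genes of the same pathways were taken from a list of 92 symbols, of which 74 had a row and 69 were tested. By limma 2 rose (2.90%, near the 2.43% of all tested genes that rose) and 0 fell, and by edgeR 1 rose and 0 fell. By DESeq2 6 were higher (8.70%, with 6.31% of all tested genes) and 9 lower (13.0%, with 9.11% of all tested genes). At an unadjusted limma p under 0.05, 10 were higher (14.5%) and 12 lower (17.4%), with 11.2% and 12.5% of all tested genes. Slc2a6, which encodes GLUT6, a transporter of lysosomal membranes in macrophages, lies on chromosome 2 (mm10, 27021363 to 27027998, minus strand). It had 102 and 95.01 CPM in Ptip_KO, against 55.2 and 55.4 CPM in WT, a log2 fold change of 0.82 ± 0.0859 with an adjusted p of 0.0102 by limma, 0.0132 by edgeR and 5.70e-15 by DESeq2. The gap between the groups was many times the spread within them, and the limma call held with each library left out in turn. Per kilobase of exon, Slc2a6 made up 71.7% and 74.8% of the sum of Slc2a1, Slc2a3 and Slc2a6 in Ptip_KO, against 55.35% and 53.4% in WT. Pdk2, a pyruvate dehydrogenase kinase like Pdk1, had 7.17 and 8.05 CPM in Ptip_KO, against 4.15 and 3.69 CPM in WT. Its log2 fold change of 0.81 ± 0.139 had an adjusted p of 0.0332 by limma, 0.0514 by edgeR and 0.000748 by DESeq2. Its limma adjusted p was 0.0963 without Ptip_KO replicate 1 and 0.169 without Ptip_KO replicate 2. Pdk2 lies on chromosome 11 (mm10, 95026258 to 95041354, minus strand) over a gene on the opposite strand, Gm11513, and whether counting used strand is not given in the sources used here.

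The promoter windows of the pair that rose are printed under the same marking, at chr2:27027999-27028248 on the minus strand for Slc2a6 and chr11:95041372-95041621 on the minus strand for Pdk2.
Slc2a6: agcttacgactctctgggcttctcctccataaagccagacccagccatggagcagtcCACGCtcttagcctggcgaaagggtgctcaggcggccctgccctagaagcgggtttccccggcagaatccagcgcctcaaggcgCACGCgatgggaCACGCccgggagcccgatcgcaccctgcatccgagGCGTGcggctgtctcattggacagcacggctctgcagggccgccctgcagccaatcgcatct
Pdk2: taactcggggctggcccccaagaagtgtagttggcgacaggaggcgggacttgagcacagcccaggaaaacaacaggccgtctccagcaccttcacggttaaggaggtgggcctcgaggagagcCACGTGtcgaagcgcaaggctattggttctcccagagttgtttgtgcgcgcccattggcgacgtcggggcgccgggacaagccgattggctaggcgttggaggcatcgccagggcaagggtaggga
Slc2a6 held 0 matches of ACGTG and 4 of GCGTG, and Pdk2 held 2 of ACGTG and 0 of GCGTG. Of the tested genes with a window, 57.3% held either match, and whether matches go with the direction of a change was not tested.

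By DESeq2, but not by limma, Slc2a9, Pgm1, Pdha1 and Kdm3a were also higher. The genes lower by DESeq2 only were Slc2a4, Pgm2l1, Bpgm, Pklr, Dlat, Pcx, Ddit4, Ero1l and Plod1. Bpgm and Pklr, the bisphosphoglycerate mutase and the pyruvate kinase known from red cells, lay lower beside the red cell markers given above. Bpgm had 23.8 and 24.8 CPM in Ptip_KO, against 34.5 and 68.8 CPM in WT (limma adjusted p = 0.127). Pklr had 0.552 and 1.31 CPM in Ptip_KO, against 2.39 and 3.46 CPM in WT (limma adjusted p = 0.0797). In both genes WT replicate 2, the library with the highest sum of red cell markers, had the highest value, and the part of red cell precursors in them was not tested.

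**Figure D5:**
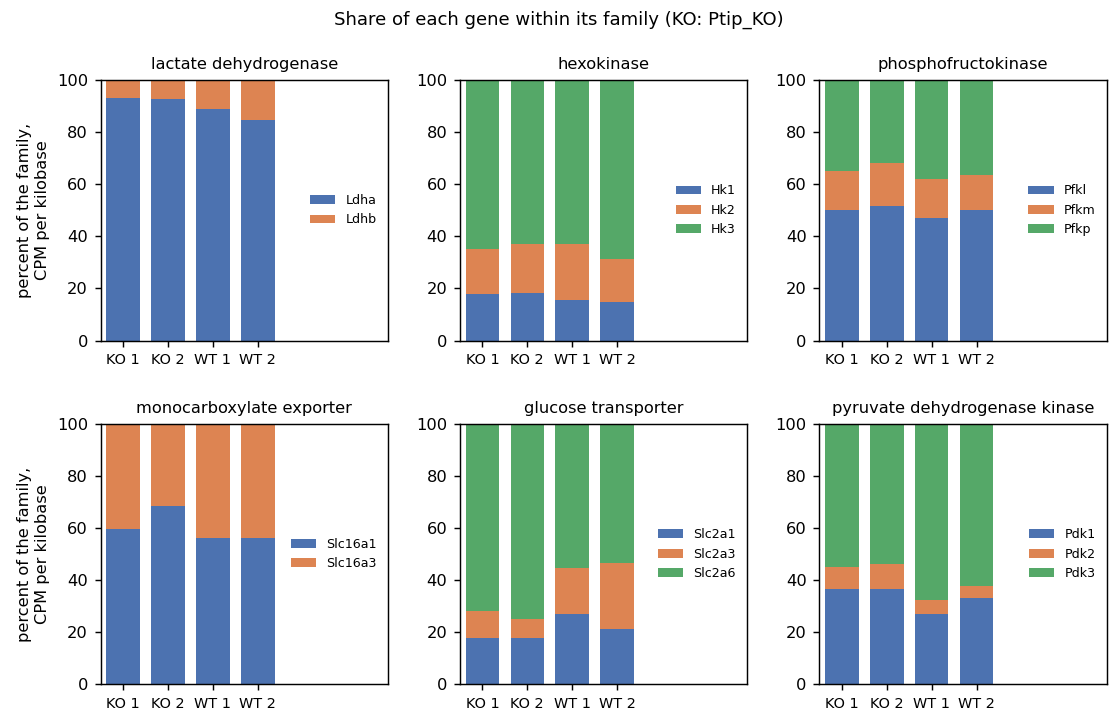
Share of each gene within its family in each library, from CPM per kilobase of exon, with the Ptip_KO libraries left of the WT libraries. Ldhb takes 6.99% and 7.44% of lactate dehydrogenase in Ptip_KO, against 11.25% and 15.2% in WT. Slc2a6 takes 71.7% and 74.8% of the sum of Slc2a1, Slc2a3 and Slc2a6 in Ptip_KO, against 55.35% and 53.4% in WT.

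Within families, levels per kilobase of exon set a stable order in all 4 libraries: Ldha above Ldhb, Hk3 above the other hexokinases, Pfkl above Pfkp above Pfkm, Slc16a1 above Slc16a3, and Pdk3 above Pdk1 above Pdk2. That order divides by all annotated exons, which are long for Pfkp and Pdk1, and in plain CPM Pfkp lay above Pfkl and Pdk1 above Pdk3 in all 4 libraries. Aldoa held 99.7% to 99.9% of the aldolase sum in every library. Hk1 and Hk2 changed places between libraries, as did Slc2a1 and Slc2a3. Slc2a1, Slc2a3 and Slc2a6 summed to 44.3 and 39.5 CPM per kilobase in Ptip_KO, against 31.1 and 32.3 in WT, with Slc2a6 as the gene that was higher. This sum includes Slc2a6, which was called, and leaves out Slc2a4, Slc2a8 and Slc2a9, so it does not measure glucose entry. The 3 pyruvate dehydrogenase kinases summed to 27.3 and 26 CPM per kilobase in Ptip_KO and 25.1 and 26.04 in WT. Pdk3 made up 55.1% and 53.8% of them in Ptip_KO, against 67.65% and 62.2% in WT.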

How the data were processed

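Per the labels' protocols, the 2 Ptip_KO and 2 WT libraries were stranded mRNA libraries (TruSeq). Tools named in the submitters' processing notes, without roles, are TopHat2 2.0.10, HTSeq 0.6.0 and edgeR 3.8.6, with build mm10; strand use in counting is not given in the sources used here. What the authors deposited is a gene-level normalized signal, in CPM scaled to the effective library size. Column names gave the samples, with help from the description for 1 WT column numbered unlike its title. In each library 100% of values were whole reads within 0.01 read; 3 reads, the limit a count of 0 allows, equal 0.0380 to 0.0428 CPM, which covers counting error only.

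Members and lists were chosen with earlier results of these data known. Genes with at least 1 CPM in 2 libraries (12357) were tested with limma 3.58.1 (R 4.3.3, trended prior) on log2(CPM + 1), 2-sided, genotype only, Benjamini-Hochberg adjusted at 0.05; this scale understates changes of low genes. Recovered reads were tested with edgeR 4.0.16 (quasi-likelihood) and DESeq2 1.42.0. Fits were tested on simulated data, in which limma recovered 30.5% of 1.5-fold and 78.6% of 2-fold changes. A gene that did not pass may thus still differ. Positions are from GENCODE M21, in which 92.19% of identifiers had the same version. A near-identical copy had a transcript alignment (BLAST 2.17.0) of at least 95% identity spanning at least 200 nucleotides and 50% of the shorter of both transcripts. Levels per kilobase divide by the length of all annotated exons.

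Named were Paxip1, members past the threshold by limma, edgeR or DESeq2, Eno1, Eno1b, the 1 to 4 most abundant further members of each role, and other pathway genes past the threshold. Vegfa, Pdk1, Aldoc, Gm4735, Bpgm, Pklr and the remaining named genes were chosen after their values were seen. Alternatives changed the pseudocount (0.25, 5), the filter (none, 5 CPM), the scaling (common sum, median of ratios) or the prior (robust), summed copies, left out each library, or took replicate numbers as a block. Replicates were not 1 library deposited again: their reads gave a chi-square per degree of freedom of 41.85 in Ptip_KO and 89.37 in WT.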

Additional observations from a re-analysis of the deposited data

How the results depend on the processing

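With 2 libraries a group, single libraries moved the calls. All tested genes called numbered 777 by limma, 1906 by DESeq2 and 452 to 1620 with each library left out. Members called lower numbered 3, against 9 by DESeq2 and 2 to 7 with a library left out (7 without WT replicate 1, 5 without WT replicate 2), and members called higher 0 to 1, the 1 being Pdk1 without WT replicate 2. Other pathway genes called higher numbered 2, against 1 by edgeR and with no filter, 6 by DESeq2 and 1 to 4 with a library left out, and those called lower 0, against 9 by DESeq2 and 0 to 7. Pdk2 lost its call with no filter (limma adjusted p = 0.0534), and Gm4735 with a pseudocount of 5 (0.0705) or common-sum scaling (0.0629). The log2 fold change of Eno1 and Eno1b summed ran from −0.12 (without WT replicate 2) to 0.24. Signs reversed in Ldha (−0.24 to 0.048 with a library left out, positive without WT replicate 1) and Slc2a1 (0.022 with common-sum scaling and −0.17 to 0.11 with a library left out, positive without Ptip_KO replicate 2 or WT replicate 1), neither of them called, and the cause was not tested. The median of the members ran from −0.17 to −0.08. With Eno1b summed into Eno1 it has no value of its own. Ldhb, Eno1b and Slc2a6 kept their calls in every setting that gave them a value.

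With the replicate number as a block, 1721 genes were called, 7 members lower (also Hk3, Pgd, Slc16a1 and Pfkp), and 6 other pathway genes higher and 4 lower. The labels tie no equal numbers, and with 2 pairs the correlation of same-numbered deviations, 0.332, cannot show a pairing.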

Other observations

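Of the other pathway genes, 5 rows were too low to be tested. In 3 of these, Ldhc, Epas1 and Ankrd37, the groups overlapped. Slc2a10, which encodes GLUT10, had 0.775 and 0.557 CPM in Ptip_KO, against 0.163 and 0.304 CPM in WT. Ldhd, the D-lactate dehydrogenase, had 0.0788 and 0.171 CPM in Ptip_KO, against 0.244 and 0.203 CPM in WT. Epas1, the other oxygen-regulated HIF subunit, had 0.263 and 0.286 CPM in Ptip_KO, against 0.285 and 0.254 CPM in WT, far below Hif1a at 91.2 to 111 CPM. Among tested rows, Stc2, a secreted glycoprotein induced by low oxygen, had 1.13 and 3.13 CPM in Ptip_KO, against 0.176 and 0.862 CPM in WT, with a log2 fold change of 1.002 ± 0.383 (limma adjusted p = 0.191). Ddit4, a stress-induced inhibitor of mTOR signalling, had 3.53 and 4.35 CPM in Ptip_KO, against 4.78 and 16.3 CPM in WT (limma adjusted p = 0.278, DESeq2 adjusted p = 0.0469). As for Vegfa, WT replicate 2 alone was high. These genes were chosen after their values were seen.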
